A study of Mus musculus with 5 samples.

Results

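The genes described here encode the TAM receptor tyrosine kinases (Axl, Mertk and Tyro3) and their bridging ligands (Gas6 and Pros1, which encodes protein S). They were taken by gene symbol, 5 of the 31053 genes counted, and read as unique molecular identifiers (UMIs, one per captured RNA molecule) in 5 single-cell RNA-seq libraries of mouse heart. The control libraries (replicates 1 and 2) came from Ctla4+/+ Pdcd1-/- mice and the disease libraries (replicates 3, 4 and 5) from Ctla4+/- Pdcd1-/- mice, a model of immune checkpoint inhibitor myocarditis in which every animal lacked Pdcd1, so the groups differ in the second Ctla4 allele. Pooled hearts of 4 control mice and 10 disease mice were minced and digested with Collagenase I, DNAse I and Hyaluronidase, and live DRAQ5+ DAPI- cells were sorted. The genotype label reads Pdcd2-/- for libraries 2 and 4 and Pdcd3-/- for library 5, and the dye label runs from DRAQ5 to DRAQ9 over the 5 libraries, whereas the series' design text gives Pdcd1-/- and DRAQ5 throughout; the groups follow the Ctla4 label and the design text. Strain, age and treatment were not given for any group, and the labels do not say which mice entered which library, so every p-value below measures only the spread between libraries, which may be partly technical.

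GAS6 and protein S are secreted, vitamin K dependent proteins that bind phosphatidylserine on dying cells at one end and a TAM receptor at the other. GAS6 binds AXL, MERTK and TYRO3, whereas protein S, better known as a plasma anticoagulant, binds MERTK and TYRO3. Signalling through these receptors drives engulfment of apoptotic cells by macrophages and dampens innate cytokine and interferon responses, and in the heart MERTK on resident macrophages is known for clearing dead cardiomyocytes and ejected cell material.

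After filtering, 35838 cells of 47319 barcodes were kept (5338 to 9158 per library, median 3319 to 4460 UMIs per cell), from libraries of 24991704 to 55053988 deposited UMIs. Filters removed between 12.4 and 32.5% of the barcodes of a library, the most in disease replicate 3. Any pair of libraries shared 86 to 161 barcode sequences. Cells were gated by marker UMIs that include none of the 5 genes, which gave 4389 macrophages, 9997 fibroblasts, 13245 endothelial cells, 441 mural cells and 147 dendritic cells. The further markers Csf1r, Cd68, Mrc1 and Trem2 (macrophage), Dcn, Col1a1, Gsn and Col3a1 (fibroblast) and Pdgfrb, Cspg4, Mcam and Ndufa4l2 (mural) were higher in every library of their gate than in any library of the other 4 gates. Levels are given as CPM, the UMIs of a gene per 1000000 UMIs of the gated cells. Among endothelial checks Cldn5 (181 to 247 CPM) overlapped the mural gate (up to 217), and the mural gate held the endothelial marker list at 1540 to 2001 CPM, against 6697 to 7619 in endothelial cells. In the dendritic gate Itgax (at least 124 CPM against at most 86.7) and Cst3 (at least 5928 against at most 5907) were higher than in any library of the other 4 gates, Cst3 barely. Zbtb46 and Batf3 were no higher than in some libraries of the endothelial and macrophage gates, so the cells of the dendritic gate are described by their gate list alone. In the T cell gate Ctla4 stood at 419 and 99.96 CPM in the control libraries and at 196, 679 and 584 in the disease libraries, in replicate order as in all values below, and Pdcd1 at 619 and 131 against 321, 1114 and 881. Neither gene separated the groups, and since the deleted parts of the genes were not given, these counts do not check the genotype labels.

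The ligand genes were expressed by fibroblasts, endothelial cells and macrophages alike, whereas each receptor gene had 1 of these 5 lineages with the highest mean level. Gas6 averaged 298 ± 144 CPM (mean ± SD, n = 5 libraries, both groups together) in endothelial cells, 202 ± 120 in fibroblasts, 202 ± 130 in macrophages, 105 ± 56.0 in mural cells and 7.59 ± 3.93 in dendritic cells. Pros1 followed the same order at the ends, from 91.97 ± 26.5 in endothelial cells through 76.0 ± 32.9 in macrophages, 69.6 ± 18.1 in fibroblasts and 59.9 ± 23.4 in mural cells to 11.8 ± 9.11 in dendritic cells. Axl averaged 497 ± 33.0 in fibroblasts, 205 ± 31.2 in mural cells, 83.3 ± 8.04 in macrophages, 27.5 ± 27.8 in dendritic cells and 13.6 ± 2.60 in endothelial cells. Mertk averaged 67.1 ± 16.6 in macrophages, 45.2 ± 14.1 in mural cells, 28.7 ± 4.02 in endothelial cells and 5.05 ± 0.816 in fibroblasts, and had no UMI in any dendritic cell. In disease replicate 4 Mertk was as high in mural cells (54.1) as in macrophages (53.9). Tyro3 was low, and of the 5 lineages it was highest in fibroblasts: its 5.45 and 7.49 CPM in control and 6.18, 5.44 and 5.49 in disease fibroblasts (6.01 ± 0.886) made up 364 of its 409 UMIs in all kept cells, against 19 UMIs in endothelial cells, 4 in mural cells, 2 in macrophages and 0 in dendritic cells. Smaller gates outside the 5 lineages also held these genes: Gas6 averaged 382 in the 28 mesothelial cells (4 libraries), and in the 131 Schwann cells Pros1 averaged 112 and Tyro3 16.8, the latter from 6 UMIs.

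**Figure D1:**
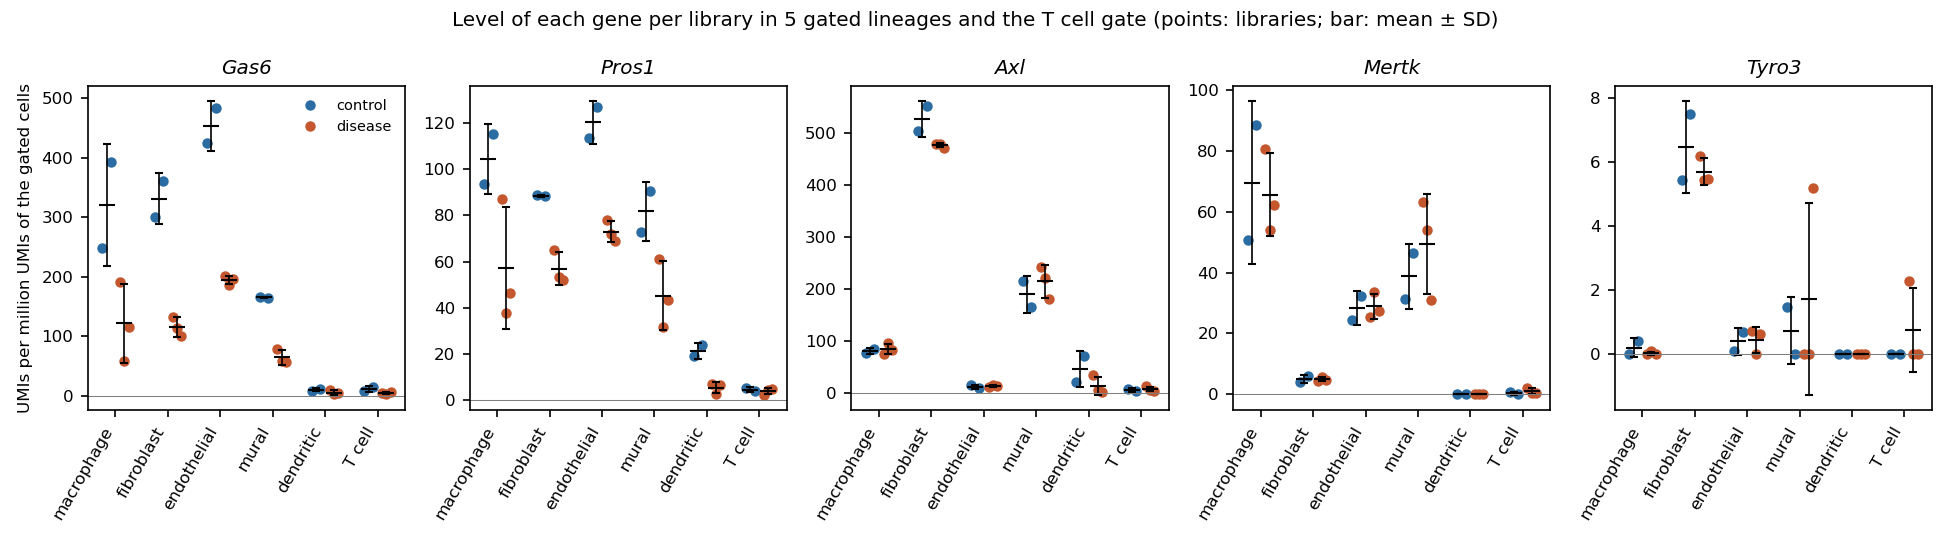
Level of each gene in CPM (y axis) in each library (points, coloured by group), with the mean and SD of each group as bars, for 5 gated lineages and the T cell gate (x axis). Gas6 and Pros1 are high in endothelial cells, fibroblasts and macrophages and lower in the disease libraries. By the mean over libraries Axl is highest in fibroblasts, Mertk in macrophages and Tyro3 in fibroblasts.

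These lineage differences were tested within libraries (edgeR quasi-likelihood test on summed UMIs with the library as a block, 25 sums). Lineages differ in most genes: 73.6% of all genes passed the adjusted threshold of 0.05 between macrophages and fibroblasts, 71.7% between macrophages and endothelial cells, 68.4% between fibroblasts and endothelial cells, 62.9% between fibroblasts and dendritic cells, 60.1% between endothelial and dendritic cells and 56.6% between macrophages and mural cells. The shares were 53.2% between mural and dendritic cells, 44.4% between fibroblasts and mural cells, 40.6% between macrophages and dendritic cells and 39.4% between endothelial and mural cells, so a call alone is near the background and the sizes are given. Gas6 was higher in endothelial cells than in fibroblasts (fibroblast minus endothelial log2 difference -0.48, edgeR adjusted p = 0.0020) and than in macrophages (macrophage minus endothelial -0.38, edgeR adjusted p = 0.0116, lost without control replicate 1, disease replicate 4 or disease replicate 5). Macrophages and fibroblasts did not differ in Gas6 beyond the spread of the libraries (macrophage minus fibroblast 0.10, edgeR adjusted p = 0.522), except that 0.31 passed without disease replicate 4 (0.0327). Pros1 in macrophages was not separated from that in endothelial cells (-0.03, edgeR adjusted p = 0.807) or fibroblasts (0.21, edgeR adjusted p = 0.074), though the latter passed without disease replicate 4 (0.35, 0.0031) or disease replicate 5 (0.32, 0.038), and the small fibroblast minus endothelial difference of -0.24 passed (edgeR adjusted p = 0.0399) but not when every gene with a count was tested (0.098), nor without control replicate 1, control replicate 2 or disease replicate 5. Axl was 2.40 log2 units higher in fibroblasts than in macrophages, 1.53 higher than in mural cells and 5.36 higher than in endothelial cells. Mertk was 3.86 log2 units higher in macrophages than in fibroblasts, 1.52 higher than in endothelial cells and 0.99 higher than in mural cells. Tyro3 was 5.82 log2 units higher in fibroblasts than in macrophages, 3.85 higher than in endothelial cells and 2.15 higher than in mural cells. The mural value rests on 4 UMIs: it was 3.73 without disease replicate 5 and 1.75, not called (edgeR adjusted p = 0.062), without control replicate 2. Against a floor of 3 UMIs over the whole dendritic gate (1.39 CPM), pooled Mertk was at least 42.9-fold higher in macrophages, at least 30.7-fold in mural cells, at least 20.2-fold in endothelial cells and at least 3.51-fold in fibroblasts.

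RNA freed from broken cells gives every droplet some UMIs, and part of these levels stood near that background. Fibroblast Dcn, a matrix gene, reached 0.687 to 1.35% of its fibroblast level in the macrophage gate, 1.29 to 2.53% in the endothelial gate and 0.746 to 1.66% in the T cell gate. Axl in the endothelial gate reached 1.76 to 3.40% of its fibroblast level, and Axl in the T cell gate 0.697 to 2.85%. Within libraries endothelial Axl was above T cell Axl in 4 of 5 (15.4, 9.71, 16.2 and 14.2 against 9.16, 3.84, 6.27 and 5.22 CPM) and below it in disease replicate 3 (12.48 against 13.6), so it stood close to this background. Macrophage Axl, at 15.3 to 20.1% of the fibroblast level, stood above that range in every library. Gas6 in the T cell gate was 8.10 and 15.4 CPM in control and 4.55, 3.93 and 6.34 in disease libraries, which covers most of the Gas6 level of the dendritic gate.

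Fibroblasts and endothelial cells held most of the ligand UMIs of the digest. Of the 32641 Gas6 UMIs in kept cells, 39.7% came from endothelial cells (31.9 to 48.3% over libraries), 39.3% from fibroblasts (32.9 to 44.7%) and 15.3% from macrophages (11.3 to 19.6%). Of the 11176 Pros1 UMIs, 39.5% came from fibroblasts (32.6 to 43.6% over libraries), 35.1% from endothelial cells (25.1 to 47.8%) and 18.3% from macrophages (12.49 to 26.0%), and in control replicate 2 endothelial cells held the larger share. Fibroblasts held 85.9% of the Axl UMIs (77.4 to 89.0%) and 89.0% of the Tyro3 UMIs (83.8 to 93.0%). Mertk UMIs were divided between macrophages (50.5%, range 36.5 to 65.3%) and endothelial cells (32.9%, range 20.6 to 46.2%). These shares depend on the number of cells of each kind in the sorted digest as well as on the level in each cell.

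**Figure D2:**
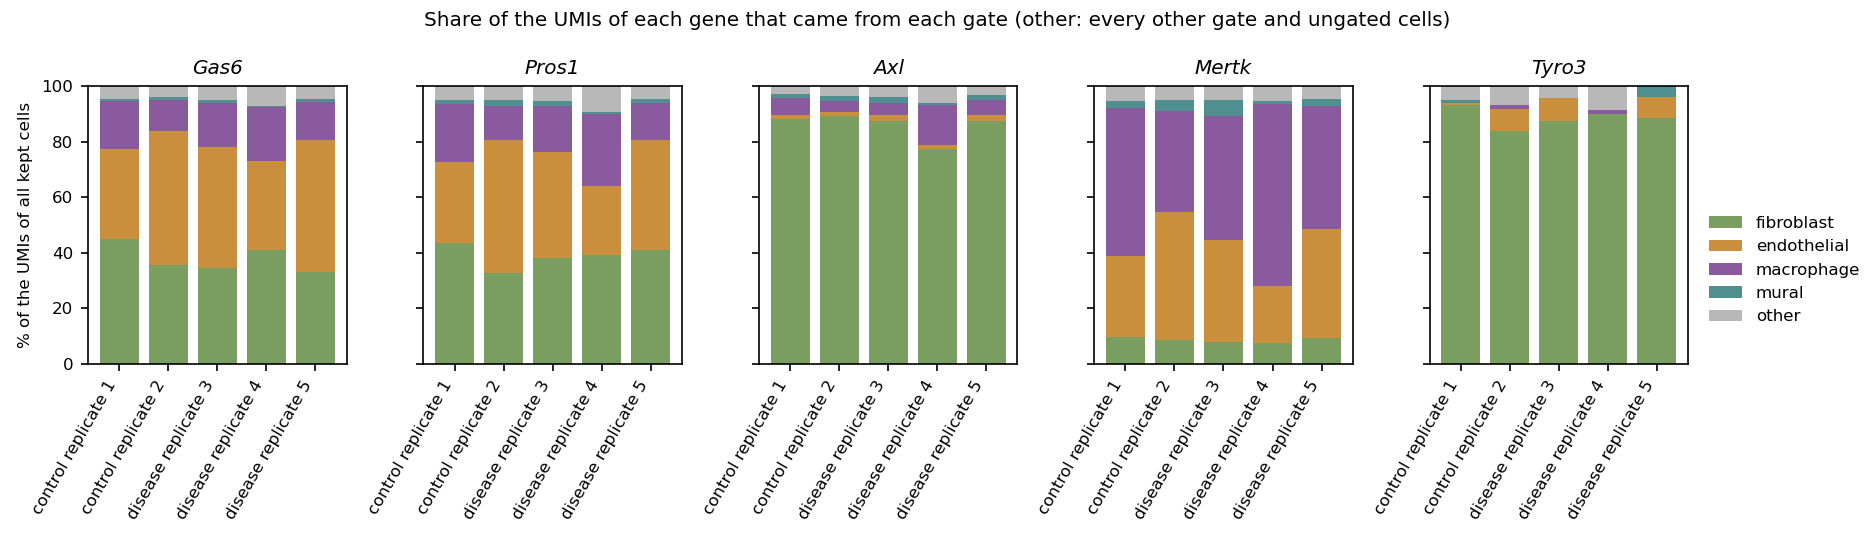
Percentage of each gene's UMIs in kept cells (y axis) that came from each gate (colours) in each of the 5 libraries (x axis). Fibroblasts and endothelial cells hold most of Gas6 and Pros1, fibroblasts most of Axl (77.4 to 89.0%) and Tyro3, and macrophages and endothelial cells most of Mertk.

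Both ligand genes were lower in disease, and their promoters are shown for that reason. Gas6 (ENSMUSG00000031451) lies on chromosome 8 (13465374 to 13494490, minus strand) and Pros1 (ENSMUSG00000022912) on chromosome 16 (62854307 to 62929346, plus strand) in the GENCODE M21 annotation of GRCm38. The 250 bases before each RefSeq start site (GRCm38.p6) are chr8:13494536-13494785 on the minus strand for Gas6 and chr16:62854057-62854306 on the plus strand for Pros1. Capitals mark GGGCGG, the core of an SP site, on either strand:
Gas6: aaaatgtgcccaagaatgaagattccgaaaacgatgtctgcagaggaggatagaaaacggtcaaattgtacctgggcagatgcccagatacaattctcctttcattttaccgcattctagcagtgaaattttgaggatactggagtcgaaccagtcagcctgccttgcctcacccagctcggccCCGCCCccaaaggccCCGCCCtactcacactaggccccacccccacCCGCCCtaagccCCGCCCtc
Pros1: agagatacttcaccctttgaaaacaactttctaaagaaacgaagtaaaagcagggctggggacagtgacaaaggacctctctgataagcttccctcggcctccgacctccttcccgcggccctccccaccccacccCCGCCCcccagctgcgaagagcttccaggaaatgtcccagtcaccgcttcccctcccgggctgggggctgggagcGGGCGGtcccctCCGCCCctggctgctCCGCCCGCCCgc
The Gas6 window held 4 such matches and the Pros1 window 5, the last pair of which overlap, and 32.7% of the 32851 windows of that length held at least 1. Axl held 1 match, Mertk 3 and Tyro3 3. No member's window held the E-box CACGTG (6.02% of windows). Each was searched on both strands. The Gas6 window had a GC content of 54.8% and the Pros1 window 64.4%, against a median of 52.4% over all windows.

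Gas6 fell in disease in fibroblasts, endothelial cells and mural cells. In fibroblasts its level was 301 and 361 CPM in control and 133, 115 and 100.2 in disease. Every disease library lay below both controls, a 2.94-fold fall (log2 fold change -1.55, SE 0.15, edgeR adjusted p = 0.0023), in a fit that called 13.2% of all genes tested and 12.8% of all genes tested lower. In endothelial cells Gas6 was 424 and 484 in control and 201, 187 and 196 in disease, with the disease libraries close together and below both controls (-1.28, SE 0.10, edgeR adjusted p = 0.0013, 12% of genes called and 11.7% called lower). In mural cells Gas6 was 166 and 165 in control and 78.8, 58.6 and 57.0 in disease (-1.34, SE 0.24, edgeR adjusted p = 0.0090, 6.86% of genes called and 6.68% called lower). The mural gate also held endothelial marker UMIs, at 1540 to 2001 CPM against 6697 to 7619 in endothelial cells, and their part in the mural levels and in this difference was not tested. The mural call was lost without control replicate 1, control replicate 2 or disease replicate 5 (edgeR adjusted p of 0.069 to 0.075), whereas the fibroblast and endothelial calls passed in all 17 alternatives run for each lineage.

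Macrophage Gas6 was lower in the disease libraries without passing the test. Its level was 249 and 394 CPM in control and 191, 58.3 and 116 in disease, so no disease library reached a control library, but the disease libraries spread widely among themselves (log2 fold change -1.32, SE 0.41, unadjusted p = 0.0159, edgeR adjusted p = 0.144; 6.41% of genes called and 6.29% called lower). The adjusted p was 0.0297 without disease replicate 3 and 0.0449 with DESeq2. In all kept cells together Gas6 was 287 and 380 in control and 155, 74.8 and 118 in disease (-1.50, SE 0.28, edgeR adjusted p = 0.0447; 6.56% of genes called and 6.52% called lower), a call that was lost without control replicate 1, control replicate 2 or disease replicate 5. In that sum fewer cells of a type and less RNA per cell cannot be told apart, which is why the gated sums are given first.

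Pros1 fell in endothelial cells and fibroblasts. In endothelial cells it was 114 and 127 CPM in control and 78.2, 72.0 and 69.0 in disease, a 1.71-fold fall (log2 fold change -0.78, SE 0.11, edgeR adjusted p = 0.0084). In fibroblasts it was 88.9 and 88.3 in control and 65.2, 53.5 and 52.0 in disease, a 1.61-fold fall (-0.68, SE 0.14, edgeR adjusted p = 0.0285). The groups did not overlap in either lineage, but the fibroblast call was lost without control replicate 1, control replicate 2 or disease replicate 5, and the endothelial call without control replicate 2 or disease replicate 5. Macrophage Pros1 was 93.7 and 115 in control and 87.2, 37.8 and 46.4 in disease (-0.79, SE 0.30, edgeR adjusted p = 0.2435, and 0.0186 without disease replicate 3). Mural Pros1 was 72.8 and 90.7 against 61.1, 31.5 and 43.2 (-0.77, SE 0.29, edgeR adjusted p = 0.184). Over both ligand genes and the 4 tested lineages, 5 of 8 tests were called lower and in all 8 every disease library lay below both controls; groups that do not overlap in that direction were found for 20.9% of the genes tested in macrophages, 27.5% in fibroblasts, 26.1% in endothelial cells and 20% in mural cells.

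The difference between the groups moved with base composition, and the values of the 5 genes are given here beside it. This was read from genes with a log2 CPM over 4. They were 6622 of the 13225 genes tested in fibroblasts, 6846 of 12445 in endothelial cells, 5915 of 11115 in macrophages and 6800 of 6809 in mural cells. The log2 fold change of a gene correlated with the GC content of the first 300 nucleotides of its transcript, with Spearman's rho across genes of -0.49 in fibroblasts, -0.43 in endothelial cells, -0.42 in macrophages and -0.32 in mural cells; these are correlations across genes, which do not replicate one another, so they carry no p. Those 300 nucleotides had a GC content of 72.7% in Gas6, higher than 93.6% of genes, 63.0% in Pros1, 67.0% in Axl, 62.0% in Mertk and 56.3% in Tyro3. With that trend removed, Gas6 was still called in fibroblasts (log2 fold change -0.92, edgeR adjusted p = 0.0188) and endothelial cells (-0.74, 0.0113) but not in mural cells (-0.86, 0.085), and Pros1 in endothelial cells (-0.50, 0.038) but not in fibroblasts (-0.42, 0.107). The same step moved the calls over all genes from 51 higher and 1695 lower to 786 higher and 1069 lower in fibroblasts, and from 48 higher and 1450 lower to 798 higher and 951 lower in endothelial cells. It turned 12 higher and 455 lower into 45 and 248 in mural cells. How much of the fall in Gas6 and Pros1 belongs to the base composition was not tested beyond these values.

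The receptor genes were not called in any lineage. Fibroblast Axl was 503 and 552 CPM in control and 479, 478 and 472 in disease, without overlap but by only -0.19 on the log2 scale (SE 0.09, edgeR adjusted p = 0.255), and 49.1% of all genes tested in fibroblasts had groups without overlap in either direction. Macrophage Axl was 77.1 and 84.8 against 75.5, 95.8 and 83.5 (0.20, SE 0.22, edgeR adjusted p = 0.650), and mural Axl 215 and 165 against 242, 221 and 181 (0.16, SE 0.22, edgeR adjusted p = 0.775). Macrophage Mertk was 50.5 and 88.5 in control and 80.4, 53.9 and 62.2 in disease, so that the controls enclosed all disease libraries (0.04, SE 0.25, edgeR adjusted p = 0.948). Endothelial Mertk was 24.5 and 32.2 against 25.6, 33.5 and 27.5 (-0.04, SE 0.17, edgeR adjusted p = 0.911), and mural Mertk 31.2 and 46.3 against 63.1, 54.1 and 31.1 (0.34, SE 0.37, edgeR adjusted p = 0.705). Fibroblast Tyro3, whose values are given above, differed by -0.21 (SE 0.19, edgeR adjusted p = 0.515). Of the 9 receptor tests, 0 were called by edgeR, 0 had an unadjusted p under 0.05 and 0 were called by DESeq2; with 5 libraries this does not show that the levels were equal. With the GC trend removed, the Axl difference was positive in all 4 lineages, at 0.36 in fibroblasts (edgeR adjusted p = 0.064), 0.61 in macrophages (0.230), 0.63 in endothelial cells (0.145) and 0.63 in mural cells (0.163).

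**Figure D3:**
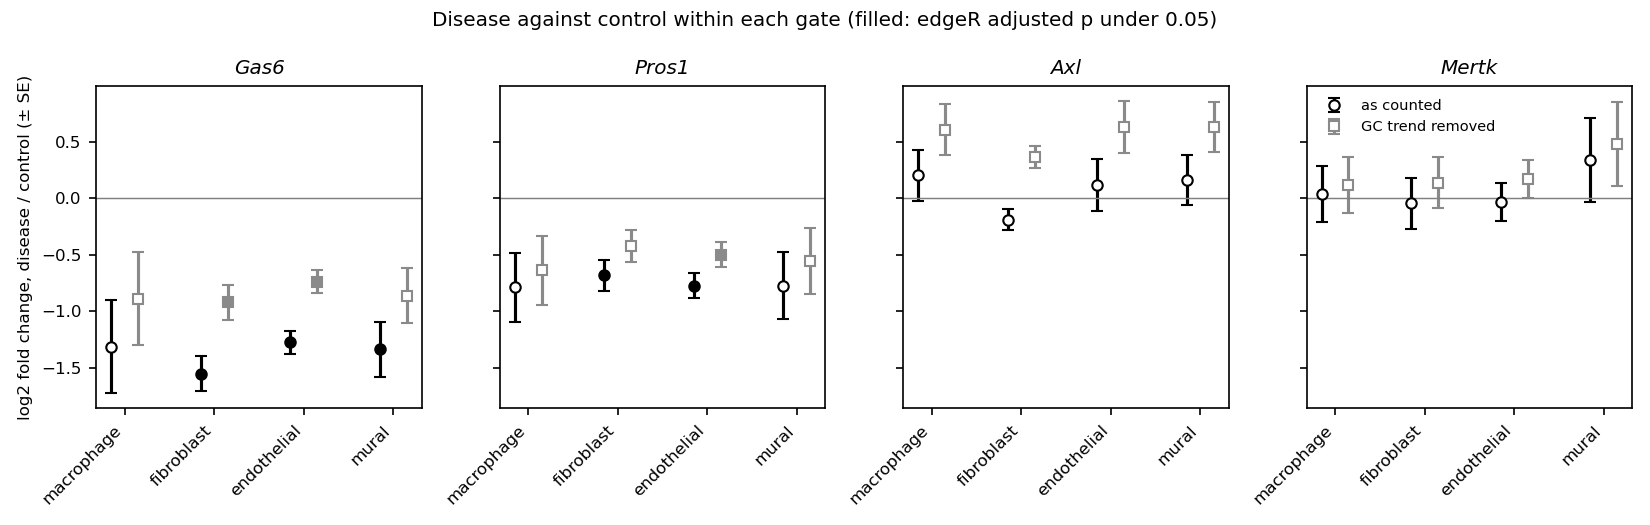
Log2 fold change of disease over control (y axis, with its SE) for each gene in 4 lineages (x axis), as fitted and with the GC trend removed (colours and symbols); filled symbols have an edgeR adjusted p under 0.05. Gas6 lies between -1.55 and -1.28 and Pros1 between -0.79 and -0.68 as fitted, both nearer 0 with the trend removed. Axl lies between -0.19 and 0.20 as fitted and between 0.36 and 0.63 with the trend removed, with no receptor gene called.

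Whether the disease difference itself varied between lineages was tested by a lineage by group interaction for macrophages, fibroblasts and endothelial cells. Of 14 such tests over the 5 genes, 0 were called by edgeR and 1 had an unadjusted p under 0.05; the interactions called 0.064, 0.0147 and 0.479% of all genes for macrophage against fibroblast, macrophage against endothelial and fibroblast against endothelial. The 1 was Gas6, whose difference was lower in fibroblasts than in endothelial cells by -0.41 on the log2 scale (SE 0.13, unadjusted p = 0.0075, edgeR adjusted p = 0.182), against a median of -0.12 over all genes. With normalization within each lineage it was -0.28 (edgeR adjusted p = 0.515), with every gene tested -0.15, and without control replicate 1, control replicate 2 or disease replicate 3 between -0.18 and -0.15. Gas6 therefore passed in fibroblasts and not in macrophages without a tested difference between them (macrophage minus fibroblast 0.20).

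Within the gates the ligand genes were also read in subsets, taken from UMIs of a few further markers. The fibroblast and endothelial subsets were not tested against each other. Gas6 in fibroblasts led by Postn or Cilp UMIs, which mark matrix-producing activated cells, was at 681 and 825 CPM in control and 251, 193 and 116 in disease (42 cells in control replicate 2). Fibroblasts led by Pi16 or Dpp4, markers of adventitial progenitor-like cells, held it at 261 and 312 against 108, 92.1 and 91.8, and fibroblasts with none of these at 408 and 484 against 215, 159 and 143. The Pi16 or Dpp4 cells were 71.0 to 76.1% of the gate, so they are most fibroblasts and not a rare subset. They also had more UMIs than the cells with none (median 5727 to 6722 against 4126 to 4645). In disease replicate 5 Gas6 was 116 in the Postn or Cilp cells and 143 in those with none of the markers. Gas6 fell in the Pi16 or Dpp4 cells (log2 fold change -1.61, edgeR adjusted p = 0.0012, 13.1% of genes called lower) and in the fibroblasts with none of these markers (-1.34, edgeR adjusted p = 0.0088, 9.62% called lower). Among endothelial cells, endocardial cells held Gas6 at 570 and 889 against 351, 420 and 426 (10 to 24 cells a library), and venous cells at 521 and 650 against 346, 511 and 316. Lymphatic cells (9 to 34 a library) were at 585 and 810 against 404, 332 and 875, so that here the groups overlapped. Gas6 fell in arterial endothelial cells (-1.32, edgeR adjusted p = 0.0016, 8.46% called lower), in those of no subset (-1.34, edgeR adjusted p = 0.0012, 11.8% called lower) and in pericytes (-1.66, edgeR adjusted p = 0.0143, 6.06% called lower). Pros1 fell in Pi16 or Dpp4 fibroblasts (-0.72, edgeR adjusted p = 0.0366) and in endothelial cells of no subset (-0.82, edgeR adjusted p = 0.0073), and gave -0.68 in arterial cells (edgeR adjusted p = 0.120) and -0.65 in pericytes (edgeR adjusted p = 0.358).

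**Figure D4:**
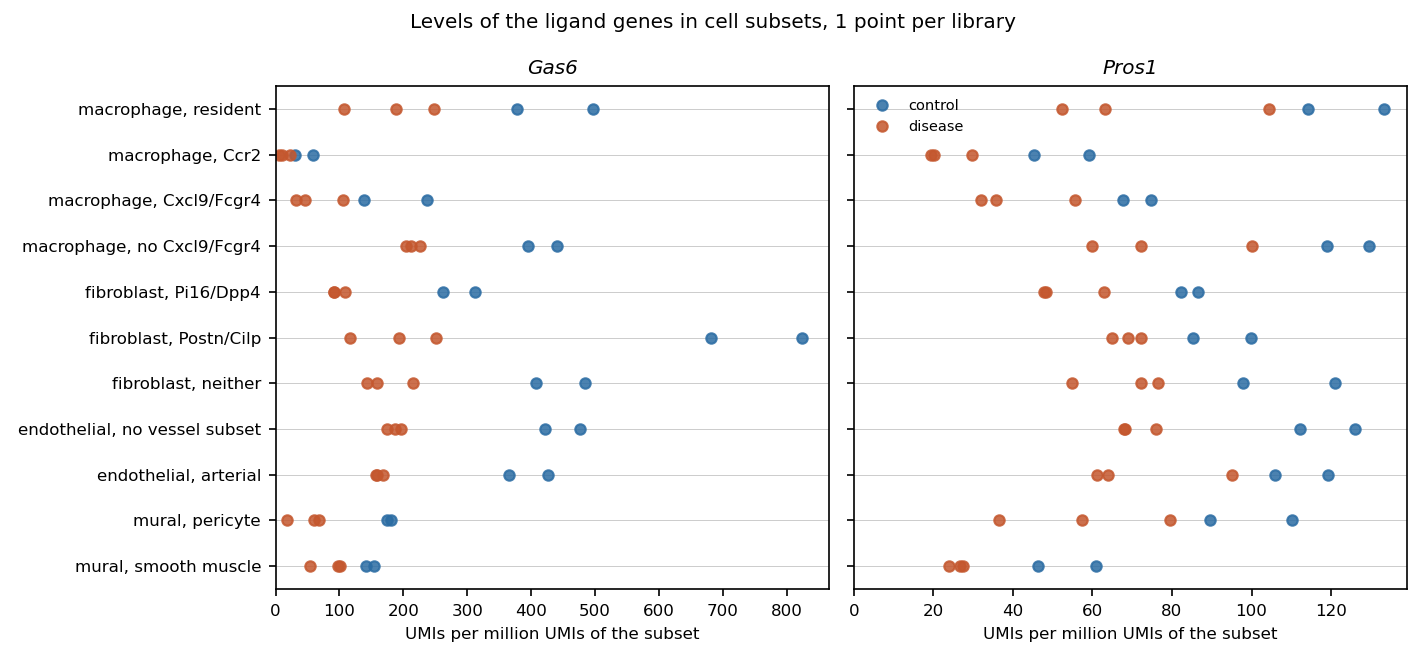
Levels of Gas6 and Pros1 in CPM (x axis) in subsets of macrophages, fibroblasts, endothelial cells and mural cells (y axis), with 1 point per library coloured by group. Gas6 in Postn or Cilp fibroblasts is at 681 and 825 in control against 116 to 251 in disease, and in the other subsets plotted the control libraries lie above the disease libraries for both genes; venous, lymphatic and endocardial cells are not plotted, and some subsets share cells.

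Receptor genes were read in the subsets as well, and those of fibroblasts and endothelial cells were again not tested against each other. Axl in fibroblasts led by Pi16 or Dpp4 was 556 and 611 CPM in control and 532, 532 and 525 in disease, against 270 and 321 and 285, 317 and 253 in fibroblasts with none of the subset markers. The latter cells had fewer UMIs (median 4126 to 4645 against 5727 to 6722), and the part of depth in this difference was not tested. Endocardial Axl, at 65.4 and 80.8 in control and 24.5, 79.9 and 26.6 in disease, was above the 9.71 to 16.2 of all endothelial cells, though from few cells. Arterial Mertk was 43.6 and 50.9 in control and 35.2, 39.0 and 38.1 in disease. Between mural cell types, Axl was higher in smooth muscle cells than in pericytes (log2 difference 0.77, SE 0.22, edgeR adjusted p = 0.026) and Pros1 lower (-0.94, SE 0.28, edgeR adjusted p = 0.031), in 4 libraries, since disease replicate 4 had 19 smooth muscle cells; 15.4% of genes passed there. Mertk gave 0.89 (edgeR adjusted p = 0.064) and Gas6 0.06 (0.894). The Pros1 call was lost without any one of the 4 libraries and its adjusted p ranged up to 0.083, and the Axl call was lost without control replicate 1, control replicate 2 or disease replicate 3 (up to 0.176).

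Macrophage subsets were compared within libraries. In resident macrophages, those with UMIs of Lyve1, Timd4 or Folr2 and none of Ccr2, Gas6 was 377 and 498 CPM in control and 248, 108 and 188 in disease. Ccr2 encodes the receptor of recruited monocytes. In macrophages with Ccr2 UMIs and none of the resident markers Gas6 was 29.8 and 59.2 against 22.3, 5.66 and 10.0. Cells with both kinds of UMI or neither were left out. Those with both numbered 26 beside 28 Ccr2 cells in control replicate 2 and 56 beside 246 in disease replicate 4. Their Gas6 averaged 110.8 CPM over the 5 libraries. Gas6 was higher in resident cells in every library, by 3.56 log2 units (SE 0.16, edgeR quasi-likelihood test with the library as a block; 29.3% of all genes called). Pros1 was higher in resident cells by 1.22 (SE 0.14), at 114 and 133 in control and 104, 52.2 and 63.2 in disease against 45.2, 59.2, 29.8, 19.4 and 20.02 in Ccr2 cells of libraries 1 to 5. Mertk was also higher in resident cells by 1.16 (SE 0.15), at 65.7, 97.5, 82.9, 63.6 and 79.8 in libraries 1 to 5 against 19.6, 26.9, 40.9, 27.1 and 31.0. Axl went the other way, by -1.06 (SE 0.15), with 63.1, 55.4, 59.6, 73.7 and 76.7 in resident cells against 110, 194, 127, 118 and 93.1 in Ccr2 cells. All 4 differences were called in each leave-one-out fit as well.

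**Figure D5:**
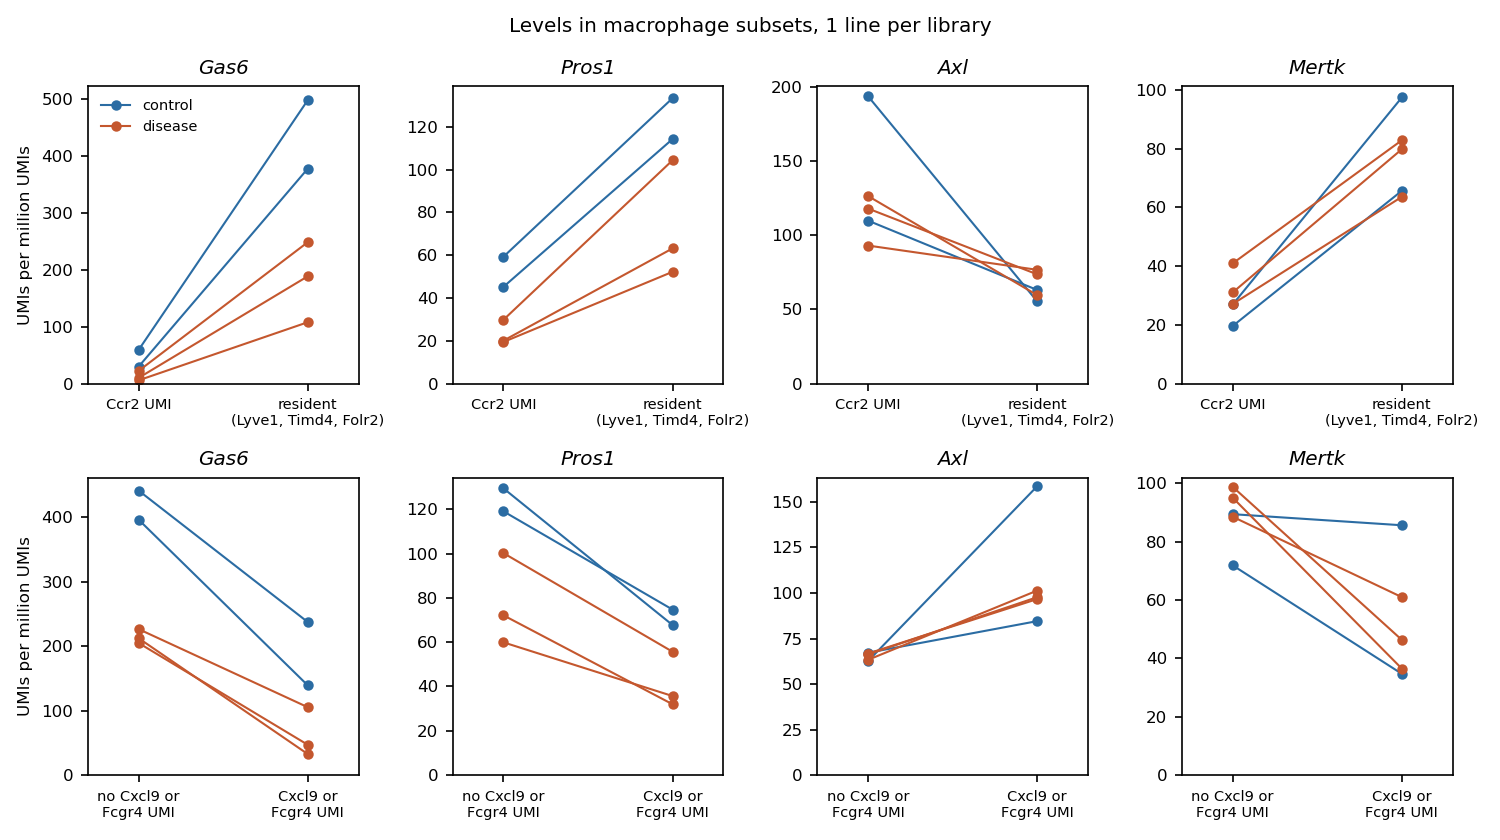
Levels of Gas6, Pros1, Axl and Mertk in CPM (y axis) in pairs of macrophage subsets (x axis), with 1 line per library coloured by group. Gas6, Pros1 and Mertk are higher in resident than in Ccr2 macrophages and Axl is lower, in every library, and cells with Cxcl9 or Fcgr4 UMIs lie on the Ccr2 side for Gas6 and Axl.

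A second split of the macrophages, by UMIs of the interferon-gamma responsive genes Cxcl9 or Fcgr4, gave differences in the same directions as Ccr2. Gas6 was 139 and 237 CPM in control and 105, 32.4 and 46.8 in disease in the cells with such a UMI, and 396 and 441 against 226, 212 and 205 in those without (log2 difference -1.45, SE 0.19, edgeR adjusted p = 0.00024; 30% of genes called). Pros1 (-0.63, SE 0.10, edgeR adjusted p = 0.00087) and Mertk (-0.65, SE 0.15, edgeR adjusted p = 0.0062) were lower in the cells with a UMI, and Axl was higher (0.89, SE 0.13, edgeR adjusted p = 0.00057). Cells with a UMI of Cxcl9 or Fcgr4 also had more UMIs in all, a median of 6521 to 9131.5 against 3634 to 5222, and the part of depth in these differences was not tested. They made up 42.4 and 17.3% of macrophages in control and 22.0, 71.3 and 40.5% in disease, and the share was highest in disease replicate 4, where macrophage Gas6 was lowest. Control replicate 1 and disease replicate 5, at 42.4 and 40.5%, had macrophage Gas6 at 249 and 116 CPM. A link between this share and the Gas6 level was not tested. In macrophages without such a UMI, Gas6 fell in disease (log2 fold change -0.97, edgeR adjusted p = 0.0030, 8.07% of genes called lower). In those with one it gave -1.56 (edgeR adjusted p = 0.121, 5.41% called lower) and in resident cells -1.23 (edgeR adjusted p = 0.054, 6.78% called lower).

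The share of cells with a UMI was compared after thinning every cell to 1000 UMIs. Gas6 was then found in 33.7 ± 2.00% (SD, n = 2) of control and 17.9 ± 0.889% (SD, n = 3) of disease endothelial cells, and in 25.2 ± 1.43 against 10.5 ± 0.7999% of fibroblasts. In macrophages it was 26.9 ± 6.25 against 13.2 ± 3.97%, and in mural cells 12.3 ± 2.61 against 4.14 ± 1.74%. In the T cell gate, a background for these genes, 0.391 to 1.89% of cells had a Gas6 UMI. All 4 comparisons gave the smallest two-sided exact permutation p that 5 libraries allow, 0.1, or 0.278 adjusted over 25 tests. Without thinning the Gas6 shares were 63.6 against 36.9% in endothelial cells, 67.5 against 37.6% in fibroblasts, 63.6 against 39.0% in macrophages and 38.6 against 22.6% in mural cells. Pros1 was found in 11.4% of control and 7.46% of disease endothelial cells (exact permutation p = 0.1) and in 8.90 against 5.70% of fibroblasts (0.2). In macrophages it was 11.7 against 6.72% (0.3), where the groups overlapped, though not at 2000 UMIs (20.7 against 10.5%, 0.1). In mural cells it was 7.89 against 3.46% (0.1), where the groups overlapped at 2000 UMIs (0.3). Among the receptor genes, some differences changed direction with depth. Fibroblast Tyro3 was in 0.510% of control and 0.723% of disease cells at 1000 UMIs but in 4.02 against 3.21% without thinning, and mural Mertk in 4.54 against 2.26% but in 17.6 against 18.3% without thinning, so no direction is read from either. Fibroblast Axl was in 36.8% of control and 35.8% of disease cells at 1000 UMIs and in 83.2 against 79.5% without thinning. Macrophage Axl was in 7.57 against 8.74% (exact permutation p = 0.1) at 1000 UMIs and in 14.7 against 15.6% (0.6) at 2000. How often all genes separate the groups by this measure was not computed. Of macrophages, 3 to 10 cells per library had UMIs of both Axl and Mertk after thinning, which was 0.243 to 0.758% of the cells.

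Over the 25 sums of lineage by library, the ligand genes were each other's nearest gene among 5977 candidates. The Pearson correlation of log2 levels of Gas6 was 0.96 with Pros1, followed by 0.94 with Trim47 and 0.94 with Fam208a, and Pros1 was next nearest to App (0.92) and Sesn1 (0.91). Axl was nearest to Lrp1 (0.94), Plxdc2 (0.92) and Thbs1 (0.90), and Mertk to Stard8 (0.94), Mef2c (0.91) and Sertad1 (0.90). Tyro3 was nearest to Efemp1 (0.95), Scara5 (0.93) and Loxl1 (0.91). The sums of 1 library share its depth and those of 1 lineage its cell type, so these values are descriptions without a p.

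Of 37 other genes of the pathway, 1 to 6 were called lower in each lineage. For so few genes these counts were near the shares of all genes, so they are not read as a result about the pathway. In fibroblasts 6 of 33 tested genes (18.2%) were called lower and 0 higher (13.2% of all genes called, of which 51 of 13225 tested were higher). In endothelial cells 5 of 33 (15.2%) were called lower and 0 higher (12% of all genes), in macrophages 1 of 32 lower (6.41%) and in mural cells 1 of 27 lower (6.86%). Of the interferon receptor feedback genes 4 of 7 were called lower in fibroblasts and 3 of 5 tested in endothelial cells, without a test of the group. DESeq2 called 0 higher in any of the 4. The list's median log2 fold change was -0.10 in fibroblasts and -0.16 in endothelial cells, against -0.01 and 0.01 over all genes. Ifnar2, a subunit of the type I interferon receptor, fell in every lineage tested: -2.02 in fibroblasts (edgeR adjusted p = 0.0018), -2.01 in endothelial cells (0.0012), -2.03 in mural cells (0.0013) and -1.62 in macrophages (0.0059). Its normalized level in fibroblasts was 213 and 184 CPM in control and 57.0, 38.9 and 51.1 in disease, and 70.7% of its first 300 nucleotides were G or C. Ifnar1, the other subunit, fell in fibroblasts (-0.75, edgeR adjusted p = 0.0124) and endothelial cells (-0.86, 0.0050). Socs3, which encodes a feedback inhibitor of cytokine signalling, fell in fibroblasts (-1.22, edgeR adjusted p = 0.0035) and endothelial cells (-1.34, 0.0055), and Socs1, of the same family, in fibroblasts (-1.62, 0.0072). Of the engulfment signalling genes, Elmo1 fell in fibroblasts (-0.97, edgeR adjusted p = 0.0077) and endothelial cells (-0.96, 0.0063) and Dock1, its partner in Rac activation, in fibroblasts (-0.54, 0.0388). Adam10, a protease of the shedding group, fell in endothelial cells (-0.61, edgeR adjusted p = 0.0174). None of the 3 vitamin K carboxylation genes (Ggcx, Vkorc1 and Vkorc1l1), whose products activate GAS6 and protein S, was called by edgeR or DESeq2 or had an unadjusted p under 0.05 in the lineages where it was tested (2 of the 3 in mural cells).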

How the data were processed

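Single-cell RNA of 5 sorted mouse heart digests was counted by the authors and, per the file headers, written by Cell Ranger 3.1.0; it was deposited as matrices of raw UMI counts per gene and cell. The kit was 10x 5-prime version 1.1, per the labels' protocols, so each count is a tag near a transcript's start. The submitters' processing notes name Cell Ranger 3, Seurat 3, GRCh38 and mm10 without a role, and no step between counting and deposit is given in the sources used here.

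From these counts, cells with at least 500 UMIs, 200 genes and at most 10% mitochondrial UMIs were kept, and doublets were removed by Scrublet score (scanpy 1.11.5) at an expected rate of 0.8% per 1000 cells (2474 cells), a rule set after the automatic threshold failed in control replicate 2. A cell entered a gate with at least 3 UMIs and 2 markers of its list and 3 times the UMIs of each of the other lists (12 lists in all). The lists were C1qa, C1qb, C1qc, Adgre1, Fcgr1 and Ms4a7 (macrophage), Pdgfra, Tcf21, Dpt, Ddr2, Pcolce and Lum (fibroblast), Pecam1, Cdh5, Kdr, Tie1, Egfl7, Emcn and Ptprb (endothelial), Rgs5, Kcnj8, Abcc9, Vtn, Notch3, Myh11, Cnn1, Tagln and Acta2 (mural) and Flt3, Xcr1, Clec9a, Cd209a, Naaa, Wdfy4, Ccl22, Ccr7 and H2-DMb2 (dendritic). No cells were clustered. UMIs were summed per library and gate, levels are CPM over the gated cells, and the tests were edgeR 4.0.16 quasi-likelihood fits (TMM, filterByExpr, Benjamini-Hochberg over all genes tested, threshold 0.05; R 4.3.3), with DESeq2 1.42.0 as an alternative. Lineages with at least 30 cells in every library were tested between groups, which leaves out dendritic cells (6 cells in control replicate 2). Shares of cells were compared by exact permutation of the group labels over libraries. The GC trend was a loess fit of the fold change on the GC content of the first 300 nucleotides of 1 GENCODE M21 transcript per gene. It was fitted on genes with a log2 CPM over 4 and also removed from genes below that level, such as fibroblast Mertk and Tyro3. The disease fits and the macrophage against fibroblast fit were tested on simulated data, where all made more false calls than the nominal share, most in mural cells. False calls were 5 of 53 in macrophages, 10 of 67 in fibroblasts, 8 of 70 in endothelial cells and 17 of 81 in mural cells. In the macrophage against fibroblast fit they were 14 of 169. The disease fits missed most 2-fold changes. Alternatives were another normalization, no filter, DESeq2, the GC trend, other cell filters and gates, equal cell numbers, single subsets and leaving out each library; subset fits, the automatic Scrublet threshold and normalization within each lineage were added after seeing the data.

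The 5 genes, the 37 pathway genes, the gate lists and the tests were chosen with earlier results of these data known. Named genes are the 5 members, pathway genes past the threshold and, per member, the 3 genes nearest in Pearson correlation of log2(level + 1), among those with a mean of at least 20 CPM that serve as no marker. A result on 1 further gene and 1 further motif is not reported here. RefSeq promoter sequences were matched by symbol for all 5 members. Depth limits Tyro3 outside fibroblasts and every gene in dendritic cells, and intervals on UMIs cover counting error only.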

Additional observations from a re-analysis of the deposited data

How the results depend on the processing

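Gas6 stayed called lower in fibroblasts (log2 fold change -1.68 to -0.92) and endothelial cells (-1.38 to -0.74) in all 17 alternatives of each, and Pros1 in 12 of 17 (-0.80 to -0.42) and 14 of 17 (-0.86 to -0.50). Removing the GC trend gave Gas6 -0.96 in all cells and -0.86 in mural cells and Pros1 -0.42 in fibroblasts, none past the threshold, and turned the sign of Axl in all cells (0.25) and fibroblasts (0.36) and of Mertk in all cells (0.090), fibroblasts (0.14) and endothelial cells (0.17). It called 542 genes in all cells, 429 in macrophages and 293 in mural cells. Allowing 25% mitochondrial UMIs ended the call of Gas6 in all cells (-1.46). DESeq2 called Pros1 in all cells (-0.81) and Gas6 in macrophages (-1.29), gave Mertk 0.012 in all cells (0.010 with its size factors inside edgeR), and called 1737 genes in all cells and 296 in mural cells. Testing every gene with a count called Gas6 in macrophages (-1.32), Tyro3 between macrophages and endothelial cells (-2.04) and 1280 genes in macrophages and 815 in mural cells, and ended the calls of Pros1 between fibroblasts and endothelial cells (-0.25) and of Mertk between endothelial and mural cells (-0.44). For the disease difference between lineages it called 134, 76 and 304 genes and reversed Pros1 (0.22) and Mertk (0.11) between fibroblasts and endothelial cells. Normalization within each lineage called 26 genes there and reversed Pros1 (0.092), and between macrophages and endothelial cells Axl (0.080) and Mertk (0.11). The cause of these changes was not tested.

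With cell numbers made equal across libraries, mural Gas6 was -1.15 and no longer called, mural Pros1 -1.25 and called, mural Axl -0.10, endothelial Mertk 0.066, and 284 genes were called in mural cells. In macrophages without Cxcl9 or Fcgr4 UMIs Gas6 was called (-0.97) and Axl was -9.7e-05; in those with such a UMI Axl was -0.15 and Mertk -0.12. Mertk was -0.042 in resident macrophages and -0.0041 without doublet removal. In fibroblasts with no Pi16, Dpp4, Postn or Cilp UMIs Pros1 was -0.67 and not called, Mertk 0.29 and Tyro3 0.36, and arterial Pros1 was -0.68 and not called. The disease minus control difference in the share of cells with a Mertk UMI, without thinning, was 0.594 percentage points in macrophages, -0.122 in fibroblasts, -0.965 in endothelial cells and 0.636 in mural cells, and at 2000 UMIs -0.427 in endothelial cells, where Axl was 0.354. For fibroblast Tyro3 it was -0.817 without thinning and -0.029 at 2000 UMIs; each had the other sign at 1000 UMIs.

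Leaving out each library in turn gave, in all cells, Gas6 -1.75 to -1.33, Mertk -0.22 to 0.19 and 123 to 1265 genes. In macrophages it gave Gas6 -1.76 to -1.01, Pros1 -1.18 to -0.61, Mertk -0.27 to 0.34 and 194 to 1032 genes; in fibroblasts Pros1 -0.80 to -0.64, Mertk -0.28 to 0.19, Tyro3 -0.41 to -0.012 and 802 to 1861 genes; in endothelial cells Pros1 -0.86 to -0.71, Axl -0.19 to 0.49, Mertk -0.23 to 0.16 and 768 to 1506 genes; in mural cells Gas6 -1.55 to -1.23, Axl -0.025 to 0.40, Mertk 0.0040 to 0.64 and 179 to 590 genes. Between lineages, macrophage minus fibroblast Gas6 was -0.036 to 0.31 and Pros1 0.13 to 0.35, fibroblast minus mural Tyro3 1.75 to 3.73, and macrophage minus endothelial Pros1 -0.13 to 0.12. For the disease difference, macrophage minus fibroblast gave Gas6 -0.024 to 0.59, Pros1 -0.28 to 0.048, Tyro3 -2.86 to 2.49 and 0 to 74 genes. Macrophage minus endothelial gave Gas6 -0.56 to 0.075, Axl -0.48 to 0.20, Mertk -0.22 to 0.12 and 0 to 4 genes. Fibroblast minus endothelial gave Gas6 -0.44 to -0.15, Pros1 -0.027 to 0.34, Axl -0.58 to 0.15, Mertk -0.15 to 0.15, Tyro3 -2.07 to 0.26 and 3 to 300 genes. Cells with against without Cxcl9 or Fcgr4 gave 1788 to 2787 genes, and smooth muscle minus pericyte gave Gas6 -0.14 to 0.13 and 341 to 624 genes. No paired analysis was possible because the groups share no replicate number. With 5 libraries and few mural and dendritic cells, small differences in the receptor genes were not detectable.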
